A study of Mus musculus with 4 samples.

Results

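The 10 genes described here encode parts of the contractile machinery of skeletal muscle fibres, with a muscle enzyme and an oxygen-binding protein beside them. They are Acta1, Tnnt3, Tnni2, Tnnc2, Mylpf, Myl1, Actn3, Ttn, Ckm and Mb, taken by symbol from 15424 genes in the deposited table, and all 10 had a row there. The members were chosen by how their FPKM differed between the groups of this study, so their differences are given as a description and none is tested. RNA was sequenced from subcutaneous tumors of nude mice, athymic hosts short of mature T cells, into which R728T1 cells carrying Taz knockdown (shTaz) or a luciferase control shRNA (shLuc) had been transplanted. The labels describe R728T1 as non-SMCs from a mouse model built on Rb and P53, an abbreviation they leave unexplained, and name small cell lung cancer as the cell type. R728T1 is 1 line, the host strain, age and number of animals are not given in the labels, and the sequence that the Taz shRNA targets is not given either. The labels list 2 samples for shTaz and 2 for shLuc, and the table holds 1 FPKM value per gene and group (fragments scaled by transcript length and by the mapped total), so no spread between tumors, no SD and no p-value can be given.

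A sarcomere slides thin filaments of actin along thick filaments of myosin. On the thin filament, troponin C binds calcium, troponin I holds contraction back and troponin T ties both to tropomyosin, while titin spans from the Z-disc to the M-band and alpha-actinin cross-links actin at the Z-disc. Fast and slow fibres, heart and non-muscle cells use different genes for the same protein, which makes these genes markers of the cell type. The skin of mice contains a thin sheet of skeletal muscle.

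Of the 10 members, 9 had a higher FPKM in the shTaz tumors than in the shLuc tumors and Tnnc2 was lower, where 56.3% of all listed genes were higher. The members summed to 66.9 FPKM in shTaz and 37.2 FPKM in shLuc, or 0.0156% and 0.00741% of the column totals. In shTaz all 10 were above 0, whereas in shLuc 3 of them, Acta1, Myl1 and Mb, were listed at 0. Of all listed genes 5.99% were at 0 in shTaz and 4.87% at 0 in shLuc. In shLuc the members fell into 2 sets by level, Tnni2 and Tnnc2 against the rest. The split follows the shLuc values, and in shTaz Acta1 and Tnnt3 both lay above Tnnc2. Tnni2 and Tnnc2 together held 34.3 FPKM in shTaz and 34.0 FPKM in shLuc, and so accounted for 51.2% of the members' sum in shTaz and 91.3% in shLuc. The other 8 members together held 32.7 FPKM in shTaz and 3.22 FPKM in shLuc.

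**Figure D1:**
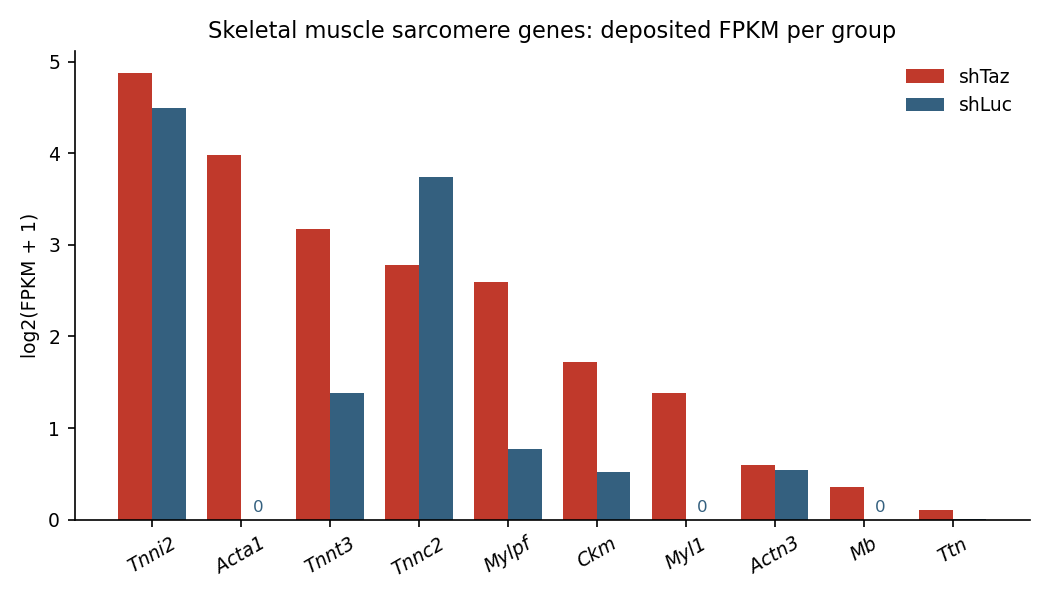
Level of the 10 members in the shTaz tumors (red) and the shLuc tumors (blue), as log2(FPKM + 1) of the single deposited value per group, so no error bars exist. Acta1, Tnnt3, Mylpf, Ckm and Myl1 are well above their shLuc value, Tnni2 and Actn3 are close, Tnnc2 is lower, and a 0 marks genes listed at 0 in shLuc.

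Differences below are log2((shTaz FPKM + 1) / (shLuc FPKM + 1)), and a difference of 1 is called 2-fold. The added 1 shrinks the difference of genes under about 1 FPKM, so the plain ratio is given as well where neither value is 0. Over all 10 members the median difference was 0.79, against 0.09 for all 15424 genes. That median depends on the added value and on the level required, being 2.04 with 0.1 added in place of 1 and 0.38 over the 3 members that averaged 5 FPKM or more. Of the members, 6 averaged 1 FPKM or more, namely Acta1, Tnnt3, Mylpf, Ckm, Tnni2 and Tnnc2, with a median difference of 1.49, against 0.12 for the 11650 genes at that level. Among those 6, 4 were 2-fold higher, where 3.96% of the 11650 genes were, and none was 2-fold lower, where 3.25% were. Over all 10 members without a minimum, Myl1 was 2-fold higher as well, making 5 of 10, where 3.39% of the 15424 genes were 2-fold higher and 2.98% 2-fold lower. Tnnc2 lay just short of 2-fold lower, at -0.96, and Ckm just past 2-fold higher, at 1.20. The 461 higher and 379 lower genes among the 11650 became 310 and 493 after median-ratio scaling and 988 and 265 after scaling to equal FPKM totals, while 4 members were 2-fold higher in each of these. These counts follow from how the members were chosen. Read as the Hippo pathway coactivator TAZ, the target of the knockdown is Wwtr1, which was at 15.1 FPKM in shTaz and 23.4 FPKM in shLuc, or 64.5% of the shLuc value. The table also has a row under the symbol Taz, a different gene that encodes tafazzin, at 9.5 FPKM in shTaz and 13.7 FPKM in shLuc, or 69.4%, and the labels do not say which gene is meant.

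The DNA before the RefSeq start of 4 members that were 2-fold higher is shown first, with that of Tnnc2, the lower member, for contrast. TAZ has no DNA-binding domain of its own and reaches DNA through TEAD factors, which bind the MCAT motif (CATTCC), a motif named from muscle genes. MyoD and its relatives bind E-boxes (CANNTG), serum response factor binds the CArG box, and MEF2 factors bind the MEF2 box. The RefSeq promoter table of GRCm38 (mm10) held 7 of the 10 members, and those without an entry were Tnnt3, Tnni2 and Actn3. Each sequence is the 250 bases before the RefSeq start, read 5′ to 3′ on the gene's strand, and capitals mark matches on either strand to the E-box, the MCAT motif, the TATA box (TATAAA), the MEF2 box or the CArG box. The window of Acta1 lies at chr8:123894776-123895025 on the minus strand, Myl1 at chr1:66945057-66945306 (minus), Mylpf at chr7:127211358-127211607 (plus), Ckm at chr7:19410844-19411093 (plus) and Tnnc2 at chr2:164779735-164779984 (minus). The RefSeq and GENCODE starts disagree for several of these genes. The windows of Mylpf, Ckm and Myl1 lie wholly within the GENCODE M21 extent of their gene. Their RefSeq starts are 2718, 6318 and 348 bases downstream of the outermost GENCODE start. Of the 250 bases of the Tnnc2 window, 233 lie within its gene as well. The Acta1 window lies outside, its RefSeq start being at -24 bases on this downstream count, so upstream of the GENCODE start. Motif positions below are counted from the RefSeq start.
Acta1: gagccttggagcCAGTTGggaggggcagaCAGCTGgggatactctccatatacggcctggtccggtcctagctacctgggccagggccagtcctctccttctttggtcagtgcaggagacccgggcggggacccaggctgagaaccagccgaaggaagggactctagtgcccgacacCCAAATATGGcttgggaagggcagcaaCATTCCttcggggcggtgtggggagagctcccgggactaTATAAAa
Myl1: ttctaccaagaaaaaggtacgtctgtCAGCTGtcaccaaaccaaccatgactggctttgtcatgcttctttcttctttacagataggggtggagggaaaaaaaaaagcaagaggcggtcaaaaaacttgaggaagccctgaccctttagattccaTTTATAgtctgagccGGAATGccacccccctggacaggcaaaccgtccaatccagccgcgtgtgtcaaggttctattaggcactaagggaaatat
Mylpf: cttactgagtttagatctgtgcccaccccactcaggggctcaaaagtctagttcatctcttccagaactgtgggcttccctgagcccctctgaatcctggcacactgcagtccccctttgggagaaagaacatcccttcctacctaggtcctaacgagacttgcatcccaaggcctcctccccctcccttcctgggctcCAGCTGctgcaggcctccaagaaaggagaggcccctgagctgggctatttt
Ckm: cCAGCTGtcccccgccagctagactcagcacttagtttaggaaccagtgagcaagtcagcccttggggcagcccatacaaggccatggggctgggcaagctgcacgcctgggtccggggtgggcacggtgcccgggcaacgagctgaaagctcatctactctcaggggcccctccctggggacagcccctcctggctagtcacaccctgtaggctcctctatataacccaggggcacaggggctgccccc
Tnnc2: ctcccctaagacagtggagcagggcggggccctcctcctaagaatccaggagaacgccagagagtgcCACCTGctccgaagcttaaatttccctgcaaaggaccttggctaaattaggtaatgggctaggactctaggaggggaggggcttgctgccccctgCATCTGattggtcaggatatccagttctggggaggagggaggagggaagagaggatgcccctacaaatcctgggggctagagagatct

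All 7 members with a sequence had an E-box in at least 1 window, a motif found in 66.2% of all 32851 windows of this length. An MCAT motif stood in the windows of Acta1, from 46 to 41 bases before the start, and of Myl1, from 80 to 75 bases before it on the opposite strand (GGAATG), while 12.6% of all windows held it. The Acta1 window alone among the 7 held a CArG box, CCAAATATGG from 73 to 64 bases before the start, against 1.47% of all windows, and a MEF2 box was found upstream of Ttn, against 2.92% of all windows. TATAAA was found for Acta1 and, on the opposite strand, for Myl1, against 12.4% of all windows. None of the windows of Mylpf, Ckm, Tnnc2 and Mb held an MCAT motif, a CArG box or a MEF2 box, which says only that these letters are not in these 250 bases. E-boxes overlapped no other marked motif in the sequences shown. A match to a motif describes the sequence and does not show binding.

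Among the thin filament members the largest gap was that of Acta1, the skeletal muscle alpha-actin gene (chromosome 8, 123891769 to 123894751, minus strand of mm10). It was at 14.9 FPKM in shTaz and listed at 0 in shLuc, so that no fold can be given. In shTaz it was the second most abundant member and lay above 76.2% of all listed genes. What the listed 0 of Acta1 means was not tested. A value near 0 need not mean absence. Rpl26, a ribosomal protein gene that all cells use, was at 15.6 FPKM in shTaz and 0.0108 FPKM in shLuc. It was picked after its values were seen and is not itself listed at 0. Acta1 also belongs to a family with closely similar coding sequences, and how reads that fit several actin genes were counted is not given in the sources used here. The other striated actin gene, Actc1 of the heart, was at 0.207 FPKM in shTaz and at 0 in shLuc, and the smooth muscle actin gene Acta2 was lower, at 29.5 FPKM in shTaz and 50.7 FPKM in shLuc. Acta1 therefore stood for 0.377% of the summed FPKM of 6 actin genes in shTaz, most of which came from the cytoplasmic genes Actb and Actg1.

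The 3 fast troponin genes did not move together. Tnnt3, fast troponin T (chromosome 7, 142498836 to 142516009, plus strand), was at 8.004 FPKM in shTaz and 1.61 FPKM in shLuc, a ratio of 4.96 and a difference of 1.78. Tnni2, fast troponin I, lies 54426 bases away on the same strand (142441808 to 142444410) and was the most abundant member in both groups, at 28.4 FPKM in shTaz and 21.6 FPKM in shLuc. Its ratio was 1.32 and its difference 0.38, and 30.5% of the 11650 genes lay higher. Tnnc2, fast troponin C (chromosome 2, 164777161 to 164779967, minus strand), was at 5.86 FPKM in shTaz and 12.4 FPKM in shLuc, a ratio of 0.473. It was the second most abundant member in shLuc and the fourth in shTaz.

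In a fast fibre the proteins of these 3 genes join in equal number in 1 complex. The RNA levels were far from equal. Relative to the FPKM of Tnni2, that of Tnnt3 was 0.282 in shTaz and 0.0748 in shLuc, and that of Tnnc2 was 0.206 in shTaz and 0.574 in shLuc. In shLuc, Tnni2 and Tnnc2 were thus listed at substantial levels next to little Tnnt3 and no Acta1 or Myl1.

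The exons of Tnnc2 are shared with another gene. Ube2c, which encodes a ubiquitin-conjugating enzyme of mitosis, runs toward Tnnc2 on the opposite strand, and in the GENCODE M21 annotation 1 of its 2 transcripts covers 592 of the 800 exonic bases of Tnnc2, or 74%. Ube2c was the more abundant of the pair and was lower in the same direction, at 27.1 FPKM in shTaz and 44.7 FPKM in shLuc, which left Tnnc2 at 21.6% of Ube2c in shTaz and 27.7% in shLuc. Whether strand was used in counting is not given in the sources used here. Without it, reads that lie within the shared bases may not be told apart by gene, so the level of Tnnc2 is uncertain in both groups. Tnni2 shares no exonic base with another annotated gene. Syt8, a synaptotagmin gene that lies 1412 bases from it, was at 6.53 FPKM in shTaz and 7.08 FPKM in shLuc.

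Each troponin was also set beside its slow and cardiac forms. Tnnt3 held 12.6% of the summed FPKM of the troponin T genes in shTaz and 1.85% in shLuc, and the rest was nearly all Tnnt2, the cardiac form, at 55.4 FPKM in shTaz and 85.3 FPKM in shLuc. Tnni2 held 81.3% of the troponin I genes in shTaz and 75.3% in shLuc. Tnnc2 held 80.3% of the troponin C genes in shTaz and 81.3% in shLuc, because Tnnc1, the slow and cardiac form, was lower as well, at 1.43 FPKM in shTaz and 2.85 FPKM in shLuc. Slow troponin I, Tnni1, was at 3.53 FPKM in shTaz and 5.07 FPKM in shLuc, and slow troponin T, Tnnt1, was listed at 0 in shTaz and at 0.613 FPKM in shLuc.

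**Figure D2:**
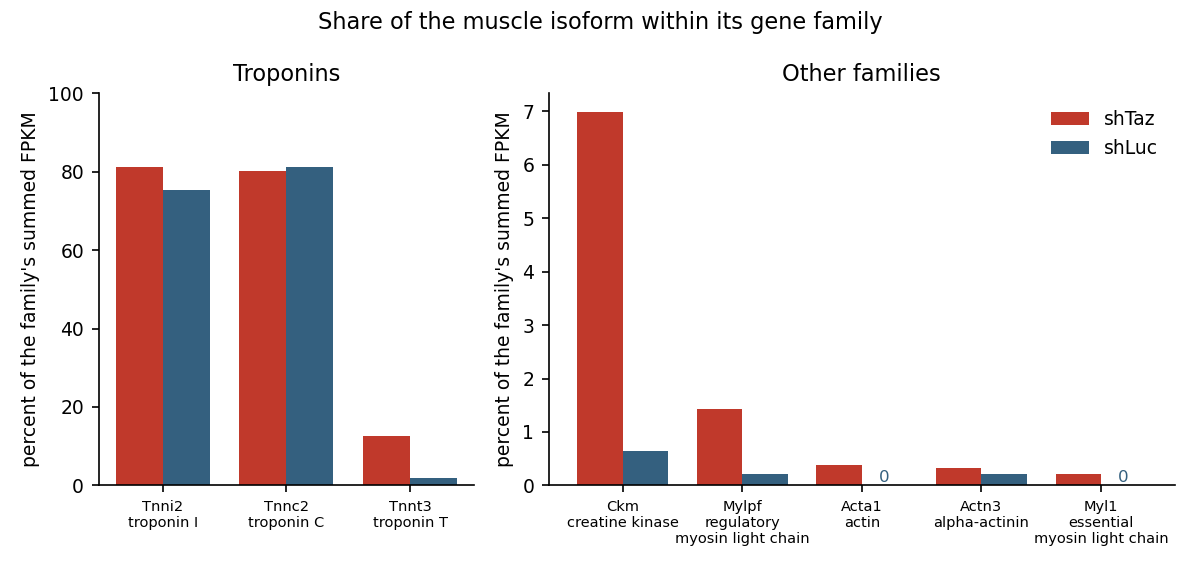
Share of each muscle isoform in the summed FPKM of its gene family, in percent, for the shTaz tumors (red) and the shLuc tumors (blue), with a separate vertical scale for the troponins (left) and the other families (right). Tnni2 and Tnnc2 hold most of their families in both groups, whereas Tnnt3, Ckm, Mylpf, Acta1 and Myl1 are minor isoforms with a larger share in shTaz.

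Both fast myosin light chain genes were higher in shTaz. Mylpf, the fast regulatory light chain (chromosome 7, 127208890 to 127214298, plus strand), was at 5.05 FPKM in shTaz and 0.706 FPKM in shLuc, a ratio of 7.14 and a difference of 1.83. Myl1, the fast essential light chain (chromosome 1, 66924295 to 66945404, minus strand), was at 1.61 FPKM in shTaz and listed at 0 in shLuc. These were small shares of their families, 1.43% for Mylpf and 0.21% for Myl1 in shTaz, next to the widely expressed Myl12a, Myl12b and Myl6. Myl12a was at 183 FPKM in shTaz and 161 FPKM in shLuc, and Myl6 at 753 FPKM in shTaz and 927 FPKM in shLuc.

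The Z-disc and titin members were near the lower end of the table. Actn3, the alpha-actinin of fast fibres (chromosome 19, 4861216 to 4877909, minus strand), was at 0.51 FPKM in shTaz and 0.454 FPKM in shLuc, the smallest ratio above 1 among the members, at 1.12. The non-muscle alpha-actinin genes Actn1 and Actn4 were both lower in shTaz, Actn1 at 82.2 FPKM in shTaz and 118.7 FPKM in shLuc. Ttn, the titin gene (chromosome 2, 76703980 to 76982547, minus strand), had the lowest FPKM of all members above 0, at 0.0721 FPKM in shTaz and 0.00735 FPKM in shLuc, yet the largest ratio, 9.81.

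FPKM divides by length, and the longest Ttn transcript has 106824 bases. Multiplied back by the length of the longest GENCODE transcript in kilobases, which gives a measure of fragments rather than of transcripts, Ttn came to about 7.7 in shTaz and 0.785 in shLuc, and among the members in shTaz it came after Tnni2, Acta1 and Tnnt3. Ckm came to about 6.29 in shTaz and 1.2 in shLuc on this scale, and Mb to 0.309 in shTaz. These figures are approximate, since the transcript models behind the deposited FPKM are not given in the sources used here and the sequencing depth is unknown.

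Ckm and Mb are not sarcomere proteins in the strict sense. Ckm, the muscle creatine kinase that regenerates ATP beside the filaments (chromosome 7, 19404776 to 19422841, plus strand), was at 2.3 FPKM in shTaz and 0.436 FPKM in shLuc, a ratio of 5.27. The brain-type creatine kinase gene Ckb was lower, at 30.6 FPKM in shTaz and 67.2 FPKM in shLuc, so that Ckm held 6.99% of both genes' sum in shTaz and 0.644% in shLuc. Mb, the myoglobin gene of oxygen-storing fibres (chromosome 15, 77015487 to 77050670, minus strand), was at 0.28 FPKM in shTaz and at 0 in shLuc.

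The widely expressed relatives did not follow the muscle isoforms. Of 10 paralogs among actins, alpha-actinins, myosin light chains and creatine kinase, none was 2-fold higher and only Ckb was 2-fold lower, with a median difference of -0.38. Actb was at 3170.0 FPKM in shTaz and 2529 FPKM in shLuc, and Myl9 at 11.3 FPKM in shTaz and 21.1 FPKM in shLuc.

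The remaining muscle genes were read from 7 lists that hold 109 genes, of which 81 had a row. Of these 81, 29 reached a mean of 1 FPKM, and 2 of the 29 were 2-fold higher and 2 were 2-fold lower, with a median difference of 0.04. The higher ones were Capn3, a muscle calpain gene that is bound by titin, at 3.69 FPKM in shTaz and 1.19 FPKM in shLuc, and Chrnb1, a subunit gene of the acetylcholine receptor of the nerve-muscle synapse, at 5.92 FPKM in shTaz and 1.53 FPKM in shLuc. The lower ones were Cdh15, the M-cadherin gene of muscle precursor cells, at 2.59 FPKM in shTaz and 17.7 FPKM in shLuc, and Mrln, listed as 2310015B20Rik, at 0 in shTaz and 3.45 FPKM in shLuc. Mrln encodes myoregulin, a micropeptide that restrains the calcium pump of muscle. Other subunit genes of the receptor of Chrnb1 did not follow it. Chrna1 was at 0.0611 FPKM in shTaz and 0.328 FPKM in shLuc, and Chrnd at 0 in shTaz and 0.284 FPKM in shLuc. Chrng had no row. Over all 81 genes 47 were higher in shTaz, or 58.0%, close to the 56.3% of all listed genes.

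Most of these genes lay under a mean of 1 FPKM, and there they differed in which group held the 0. Of the 52 muscle genes under that mean, 11 (21.2%) were listed at 0 in shTaz and 20 (38.5%) at 0 in shLuc. Among all 3774 genes under that mean, 23.5% were at 0 in shTaz and 19.1% at 0 in shLuc. The lists differed in this. Counted without a minimum, the Z-disc list had 0 genes at 0 in shTaz alone and 7 in shLuc alone, and the fast-fibre list 2 in shTaz alone and 5 in shLuc alone. The sarcolemma list ran the other way, with 4 in shTaz alone and 0 in shLuc alone. Both groups had the same number in the calcium-handling list, 3 each, and in the slow-fibre list, 2 each. The energy metabolism list had 0 in shTaz alone and 1 in shLuc alone, and the list of myogenic regulators 1 in shTaz alone and 2 in shLuc alone.

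Several genes of the fast-fibre list were above 0 in shTaz alone, at low levels. The examples in this paragraph under 1 FPKM were chosen after their values were seen. Myh2, a myosin heavy chain gene of fast oxidative fibres, was at 1.78 FPKM in shTaz and at 0 in shLuc, Myh1 was at 0.747 FPKM in shTaz and 0.035 FPKM in shLuc, and Myh4, the heavy chain of the fastest fibres, was at 0.189 FPKM in shTaz and at 0 in shLuc. Neb, the nebulin gene of the thin filament, was at 0.0806 FPKM in shTaz and at 0 in shLuc. Tpm2, a beta-tropomyosin gene that other cells also express, was at 13.1 FPKM in shTaz and 8.16 FPKM in shLuc. Of the 11 listed genes 9 were higher in shTaz, where 56.3% of all listed genes were. The 2 lower ones, Lmod3 and Myom3, were at 0 in shTaz and at 0.204 FPKM and 0.0775 FPKM in shLuc. Only 1 of the 11, Tpm2, averaged 1 FPKM or more.

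Of 8 listed slow-fibre and developmental genes 6 were lower in shTaz, with a median difference of -0.41. Myl2, the slow regulatory light chain, was at 0 in shTaz and 1.01 FPKM in shLuc, and Myl4, the embryonic and atrial light chain, was at 2.46 FPKM in shTaz and 3.56 FPKM in shLuc. The 2 higher ones were the heavy chain genes Myh7 and Myh3, at 0.088 FPKM and 0.187 FPKM in shTaz and both at 0 in shLuc. Whether the fast and slow lists differ was not tested. Of 17 listed Z-disc genes 12 were higher and 5 lower in shTaz, where 56.3% of all listed genes were higher. Csrp3, a muscle LIM protein gene, was at 1.38 FPKM in shTaz and at 0 in shLuc, and Actn2 at 0.714 FPKM in shTaz and at 0 in shLuc. Lower ones included Tcap at 0.975 FPKM in shTaz and 1.01 FPKM in shLuc, and Myoz3 at 0.496 FPKM in shTaz and 0.626 FPKM in shLuc. Examples here that averaged under 1 FPKM were again chosen after their values were seen. The 2 most abundant genes of that list are used outside striated muscle as well and were lower, the chaperone gene Cryab at 16.7 FPKM in shTaz and 28.5 FPKM in shLuc and Obsl1 at 8.26 FPKM in shTaz and 13.9 FPKM in shLuc.

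Lists farther from the filaments were spread around 0 over all their listed genes. Among genes averaging 1 FPKM or more, the median difference was -0.39 for 4 calcium-handling genes and 0.48 for 6 sarcolemma genes. Of 14 listed calcium-handling genes 7 were higher in shTaz, and beside Mrln the most abundant were Cacnb1 at 2.92 FPKM in shTaz and 4.44 FPKM in shLuc and Casq1, the fast-fibre calsequestrin gene, at 1.1 FPKM in shTaz and 1.6 FPKM in shLuc. Energy metabolism genes had a median difference of -0.14 over 5 genes, with the muscle enolase gene Eno3 at 13.6 FPKM in shTaz and 20.3 FPKM in shLuc and Pfkm nearly equal at 16.2 and 15.6 FPKM in shTaz and shLuc. Of 10 listed genes of the sarcolemma 5 were higher and 5 lower in shTaz. Sspn was at 12.3 FPKM in shTaz and 8.48 FPKM in shLuc and the membrane repair gene Dysf at 9.84 FPKM in shTaz and 8.32 FPKM in shLuc. Among the lower ones, picked after their values were seen, Sgcd, the delta-sarcoglycan gene, was at 6.72 FPKM in shTaz and 9.85 FPKM in shLuc, and Sgca, the alpha-sarcoglycan gene, was at 0 in shTaz and 1.11 FPKM in shLuc.

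Of 20 genes in the list of myogenic regulators 12 had a row, 8 of them higher and 4 lower in shTaz, where 56.3% of all listed genes were higher. The 7 that averaged 1 FPKM or more had a median difference of 0.61. Pax7, Myf5, Myod1, Myog and Myf6, transcription factor genes of the muscle lineage, were among 8 of 20 genes of that list with no row, and the table holds no gene at 0 in both groups. Mef2d, a MEF2 factor gene that many tissues express, was near equal, at 18.4 FPKM in shTaz and 17.9 FPKM in shLuc.

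Markers of other cell types moved in several ways beside these values. Smooth muscle markers summed to 69.8 FPKM in shTaz and 101.5 FPKM in shLuc, and 6 of 9 were lower, among them Tagln at 2.82 FPKM in shTaz and 11.1 FPKM in shLuc. Des, the desmin gene that skeletal and smooth muscle share, was higher, at 3.004 FPKM in shTaz and 0.586 FPKM in shLuc. Cardiac markers had no row for Myh6, Nppb, Myl7 and Pln, and the 5 with a row summed to 60.5 FPKM in shTaz and 89.2 FPKM in shLuc, nearly all of it Tnnt2, with 3 of 5 higher. Of these, Tnni3 was at 3.01 FPKM in shTaz and 2.01 FPKM in shLuc, and Hspb7 at 1.85 FPKM in shTaz and 1.33 FPKM in shLuc. Skin keratinocyte markers summed to 13.6 FPKM in shTaz and 11.0 FPKM in shLuc with 4 of 6 higher, and adipocyte markers to 41.9 FPKM in shTaz and 53.8 FPKM in shLuc with 3 of 7 higher. Fibroblast markers summed to 1006 FPKM in shTaz and 1789 FPKM in shLuc, most of it the collagen gene Col1a1, and 6 of 7 were lower. Of the 7, 4 were 2-fold lower, where 3.25% of the 11650 genes were, and the list's median difference was -1.27. These were Dpt at 1.16 FPKM in shTaz and 18.4 FPKM in shLuc, Dcn at 1.85 FPKM in shTaz and 13.8 FPKM in shLuc, Postn at 8.29 FPKM in shTaz and 35.5 FPKM in shLuc, and Col1a2 at 138.1 FPKM in shTaz and 333.7 FPKM in shLuc. The part of host skin, fat, connective tissue or muscle in the members' levels was not tested. In bulk tumors a change in the number of cells of a type and a change in RNA per cell cannot be told apart. Among neuroendocrine markers of the labelled small cell lung cancer, Neurod1, Chga, Chgb and Calca had no row, Syp was at 0.447 FPKM in shTaz and 0.557 FPKM in shLuc, Insm1 was at 0 in shTaz and 0.169 FPKM in shLuc, and Ncam1 was at 43.8 FPKM in shTaz and 39.8 FPKM in shLuc.

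Base composition moved with the difference across the table, and most members lay in its GC-rich part. Sorted by GC content and cut into 5 equal groups, with the 4.64% lacking a transcript length left out, the 11650 genes gave a falling series of medians, and the group with the lowest GC content had a median difference of 0.51 and the group with the highest -0.29. Of the members 8 fell in the upper 2 groups, between 52.6% GC for Mylpf and 57.0% for Acta1, where the medians were -0.05 and -0.29. With the GC trend removed, the difference of Tnnt3 was 1.80, that of Mylpf 1.82, that of Ckm 1.25 and that of Tnni2 0.53. Ttn, at 47.4% GC, then turned to -0.19, while Tnnc2 stayed lower at -0.89.

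**Figure D3:**
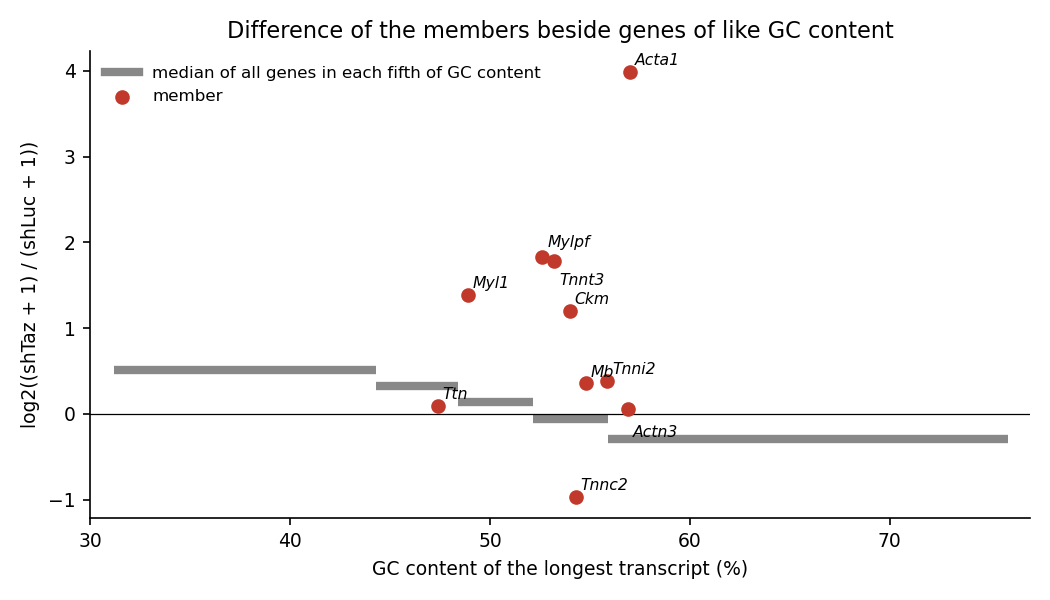
Difference of each member (red points), log2((shTaz FPKM + 1) / (shLuc FPKM + 1)), against the GC content of its longest transcript in percent, with grey bars for the median of all genes in each of 5 groups by GC content. The bars step down from 0.51 to -0.29 with rising GC content, and Acta1, Mylpf, Tnnt3, Ckm and Myl1 lie more than 1 above the bar at their GC content.

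The direction held for most members under other ways of scaling the values. Acta1, Tnnt3, Mylpf, Ckm and Myl1 were at least 2-fold higher and Tnni2 and Mb were higher by less than 2-fold in each scaling and trend removal run with an added 1, and Tnnc2 was lower in each. With 0.1 added in place of 1, Mb also passed 2-fold, at 1.92, and Tnnc2 passed 2-fold lower, at -1.07. Ttn and Actn3 were close to 0 with an added 1 and changed sign with a trend removed. For Ttn the added 1 far exceeds both FPKM values, and its difference was 0.68 with 0.1 added.

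**Figure D4:**
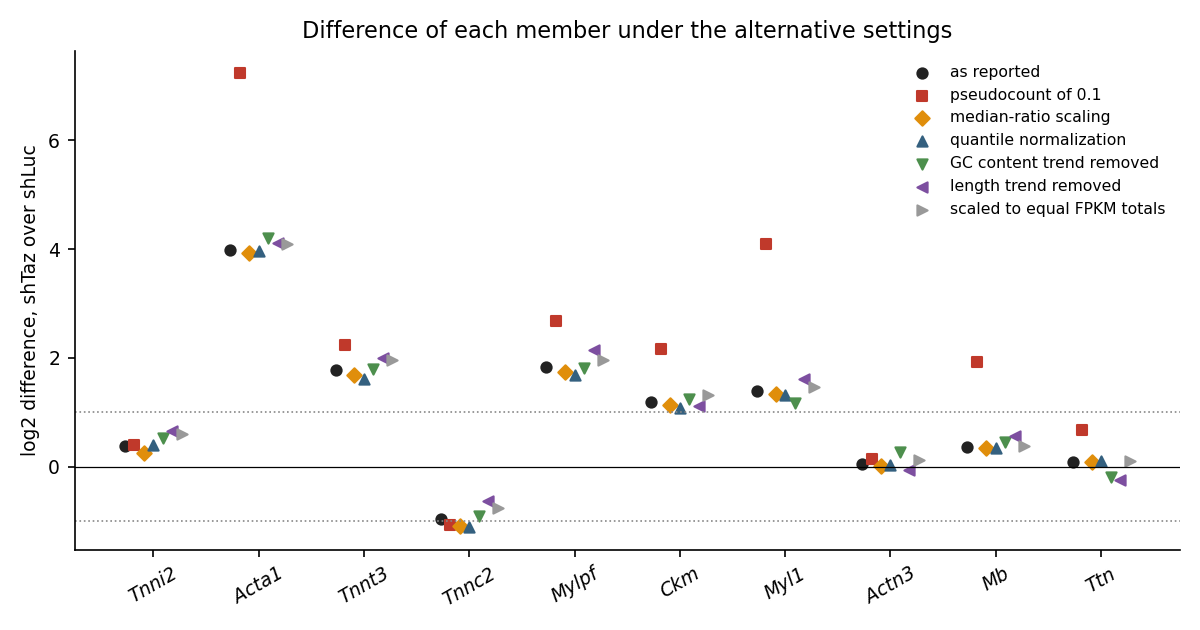
Log2 difference of each member, shTaz over shLuc, as reported and under 6 alternatives (marker shapes), with dotted lines at 2-fold. Acta1, Tnnt3, Mylpf, Ckm and Myl1 stay above 1 in every alternative drawn, Tnnc2 stays below 0, and Ttn and Actn3 lie on both sides of 0.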

How the data were processed

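The authors deposited FPKM values for 15424 genes in 1 column per group. The 2 samples of a group share a label, and that label heads 1 column, which was therefore taken as a value for the whole group; how the samples were combined is not given in the sources used here. Genome build mm10, TopHat and Trim Galore are named per the submitters' processing notes; the tools' versions, the FPKM program, its annotation and any strand setting are not given in the sources used here. FPKM is sensitive to base composition and to a few abundant RNAs, and depth is unknown, so no interval is given.

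Computed here were differences of log2(FPKM + 1), shTaz over shLuc, without further scaling. With 1 column per group no test was run, and the planned limma fit for per-sample columns did not apply. The longest GENCODE M21 transcript gave length and GC content for 95.4% of the 11650 genes, and trends were removed by lowess (span 0.3, statsmodels 0.14.6). Promoters are from RefSeq on GRCm38. Scaling and trend removal were tested on simulated data. Of the list genes, 3 were matched under an older symbol by Entrez identifier or synonym. The members and gene lists were chosen with earlier results of these data known. Named were all members, the 2-fold genes of each list with a mean of at least 1 FPKM or else its most abundant, and Wwtr1, except that some genes of the lists are not reported here; the family shares, Ube2c and other low genes were chosen after their values were seen. Python 3.11.15, numpy 2.4.6 and pandas 2.3.3 were used.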

Additional observations from a re-analysis of the deposited data

How the results depend on the processing

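No paired analysis was possible because each group has a single column, and for the same reason no replicate could be left out. Median-ratio scaling, quantile normalization, removal of the GC or length trend, another pseudocount and other minimum levels were planned, and scaling to equal FPKM totals was chosen after seeing the data. The median difference of the 10 members, 0.79 as reported, was 2.04 with a pseudocount of 0.1, 0.74 with median-ratio scaling, 0.75 after quantile normalization, 0.85 and 0.88 without the trends of GC content and of length, 0.96 at equal totals and 0.38 over the 3 members averaging 5 FPKM or more. The count of 4 members 2-fold higher was 1 at that minimum and within 1.5 times in the other settings. The count of 0 members 2-fold lower became 1, Tnnc2, with a pseudocount of 0.1, median-ratio scaling and quantile normalization. Ttn turned to -0.19 with the GC trend removed and -0.24 with the length trend removed, and Actn3 to -0.050 with the length trend removed. As reported their differences were 0.09 and 0.05, and their plain ratios 9.81 and 1.12. Both averaged under 1 FPKM, whereas the trends were fitted on genes averaging 1 FPKM or more. The cause of the sign changes was not tested.

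The other muscle genes, 2 higher and 2 lower by 2-fold, were 4 and 4 with no minimum and 0 and 1 at a mean of 5 FPKM or more, and 1 was higher both after quantile normalization and without the GC trend. Over all genes, 461 higher and 379 lower as reported, the number higher was 996 with a pseudocount of 0.1, 294 after quantile normalization, 167 and 298 without the trends of GC content and of length, and 988 at equal totals, and 219 were higher and 215 lower at a mean of 5 FPKM or more. The unknown depth limits all values under about 1 FPKM.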

Other observations

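With 2 columns a pattern is a single ratio, and many genes share any given ratio. Of the 7 members above 0 in both groups the log2 ratio of shTaz to shLuc ran from -1.08 for Tnnc2 to 3.29 for Ttn. The 3 members at 0 in shLuc have no ratio. The median of the 7 was 2.31, which is the value of Tnnt3. The 5 protein-coding genes nearest to it, of 10685 with a mean of at least 1 FPKM, were Acyp2 (15.04 FPKM in shTaz and 3.04 FPKM in shLuc), Ttc8 (3.13 FPKM in shTaz and 0.634 FPKM in shLuc), Phex (6.06 FPKM in shTaz and 1.24 FPKM in shLuc), Lin9 (1.99 FPKM in shTaz and 0.396 FPKM in shLuc) and Lmx1b (4.04 FPKM in shTaz and 0.798 FPKM in shLuc). Their log2 ratios lay between 2.29 and 2.34.

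Genes next to the members on the chromosome were mostly closer to equal. Within 10000 bases of a 2-fold higher member, Nup133 beside Acta1 was at 4.29 FPKM in shTaz and 2.83 FPKM in shLuc. Lsp1, beside Tnnt3, was at 98.7 FPKM in shTaz and 89.0 FPKM in shLuc. Tbc1d10b, beside Mylpf, was at 17.0 FPKM in shTaz and 19.9 FPKM in shLuc, and Klc3, beside Ckm, was at 9.03 FPKM in shTaz and 15.04 FPKM in shLuc.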
